A study of Mus musculus with 2 samples.

Results

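The genes that build sterols and fatty acids were examined in the duodenum, the part of the gut just behind the stomach, of adult C57BL/6J mice aged 8 weeks. The set holds 31 genes, taken by name from the 43346 gene rows of the deposited tables and sorted into 18 genes of the mevalonate and sterol steps, 6 genes of sterol sensing and transport and 7 genes of fatty acid synthesis. They do not cover every enzyme of the pathway. Polyadenylated RNA longer than 200 nucleotides was sequenced in 2 libraries, named replicate 1 and replicate 2 after the labels, from tissue pooled over littermates of both sexes, with no treatment in the labels and a health state given as unknown. Both libraries form 1 group, so the data answer how strongly each gene was expressed and how far the libraries differed. The labels give both libraries the same donor entry and different tissue-sample entries, so their spread may be partly technical, and every p-value compares these libraries, not conditions.

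Cells make cholesterol from acetyl-CoA by way of mevalonate, isoprenoid units, squalene and lanosterol. Fatty acids are built from the same acetyl-CoA with reducing power from NADPH. Both routes are switched on by the SREBP transcription factors, which are made as membrane proteins of the endoplasmic reticulum. When sterols are scarce, the escort protein SCAP carries them to the Golgi, where proteases free the active part. When sterols are plentiful, the INSIG proteins hold SCAP back. SREBP-2, from Srebf2, acts mainly on sterol genes, and SREBP-1c, from Srebf1, mainly on fatty acid genes. The small intestine both absorbs and makes sterol, and the liver X receptors, which sense oxidised sterols, drive Srebf1 and sterol efflux genes there.

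SREBP commonly works beside NF-Y, a factor that binds the letters CCAAT, so the promoters of 5 members are shown first. Each is the 250 bases before a transcription start of RefSeq (GRCm38.p6), read 5′ to 3′ on the strand of the gene. Capitals mark CCAAT, which reads ATTGG on the other strand, the sterol element TCACNCCAC and the E-box CACGTG, all searched on both strands. Hmgcs1, Idi1 and Insig1 were lower in replicate 2, and Srebf1 and Fasn were higher there. Of these 5, only Insig1 and Fasn reached the 2-fold limit used below, and most members that reached it are not shown. The Srebf1 window lies at its proximal start.
Hmgcs1, chr13:119690101-119690350, plus strand: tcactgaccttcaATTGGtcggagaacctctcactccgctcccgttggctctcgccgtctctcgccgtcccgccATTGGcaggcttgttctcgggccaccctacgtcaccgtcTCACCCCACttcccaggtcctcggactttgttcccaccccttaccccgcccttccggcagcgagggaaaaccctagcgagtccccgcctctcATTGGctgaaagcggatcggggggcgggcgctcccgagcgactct
Idi1, chr13:8885356-8885605, plus strand: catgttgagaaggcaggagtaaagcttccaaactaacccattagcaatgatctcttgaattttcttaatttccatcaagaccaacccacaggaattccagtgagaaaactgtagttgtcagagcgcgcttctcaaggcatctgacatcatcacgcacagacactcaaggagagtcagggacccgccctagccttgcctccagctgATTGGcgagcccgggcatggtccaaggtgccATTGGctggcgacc
Insig1, chr5:28071162-28071411, plus strand: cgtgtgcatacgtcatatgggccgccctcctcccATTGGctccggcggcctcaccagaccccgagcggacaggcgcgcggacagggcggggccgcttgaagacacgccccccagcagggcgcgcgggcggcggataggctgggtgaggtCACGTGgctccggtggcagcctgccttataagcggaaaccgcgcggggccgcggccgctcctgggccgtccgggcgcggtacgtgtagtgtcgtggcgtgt
Srebf1, chr11:60210472-60210721, minus strand: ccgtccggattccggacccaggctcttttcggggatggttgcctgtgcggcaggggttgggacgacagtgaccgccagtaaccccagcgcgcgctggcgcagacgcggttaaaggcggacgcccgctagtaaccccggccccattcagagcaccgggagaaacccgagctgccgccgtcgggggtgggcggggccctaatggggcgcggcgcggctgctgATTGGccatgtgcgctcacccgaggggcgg
Fasn, chr11:120824548-120824797, minus strand: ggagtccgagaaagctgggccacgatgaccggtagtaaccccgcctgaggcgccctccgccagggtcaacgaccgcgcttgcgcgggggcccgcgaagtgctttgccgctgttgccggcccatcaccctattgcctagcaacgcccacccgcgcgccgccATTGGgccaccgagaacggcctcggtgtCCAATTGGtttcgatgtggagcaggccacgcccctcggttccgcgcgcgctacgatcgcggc
In Hmgcs1 the sterol element began 137 bases before the start, with CCAAT boxes at 237, 176 and 45 bases. Idi1 had CCAAT boxes at 45 and 14 bases, Insig1 had one at 216 bases and an E-box at 101 bases, and Srebf1 had one CCAAT box at 30 bases. The Fasn window held 3, at 90, 62 and 59 bases, of which the last 2 overlap. Whether these boxes bear on the differences between the libraries was not tested.

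Over windows from 250 bases before to 50 bases after a start, 25 of the 31 members had an entry, with 34 windows. Scd1, Scd2, Stard4, Fdps, Sqle and Fdft1 had none. A CCAAT box was present in 21 of the 25 members, in 14 of 15 with a window among the sterol steps and in 3 of 5 among the fatty acid genes. Acaca, Acat2, Elovl6 and Scap had a window without one. Among all 27025 genes with a window, whether or not expressed here, the share was 41.1%. No share over expressed genes alone was taken for any motif. Counted by window, the box was in 22 of 34 member windows (64.7%) and in 37.4% of all 32851 windows. A GC box, GGGCGG, was also present in 21 of 25 members, beside 38.2% of all genes. The E-box was found in 5 members (Dhcr7, Hsd17b7, Insig1, Sc5d and Scap), beside 8.09% of all genes. The sterol element TCACNCCAC was found in Hmgcs1 alone, beside 1.44% of all genes, and CACCCCAC, which overlaps it, in Hmgcs1 and Acat2, beside 3.30%. A match is a description of these letters in the window, and no binding was measured here.

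All 31 members were expressed in both libraries, at a level of at least 1 TPM (a share of all transcripts, corrected for transcript length, that can be compared between genes). A level of at least 10 TPM in both libraries was reached by 14 members, at least 50 TPM by 7, and at least 100 TPM by 3, namely Ebp, Srebf1 and Fasn. Summed over all transcript models, the highest was Fasn, the multi-step enzyme that assembles palmitate, with 175 and 470 TPM in replicates 1 and 2 (mean 322 ± 209, SD, n = 2). That place rests on short non-coding models: over protein-coding transcripts alone Fasn had 24.1 and 34.0 TPM and ranked 9 by the mean, behind Insig1 (150 and 55.0 TPM), Srebf1 (75.8 and 118 TPM), Srebf2 (97.4 and 70.4 TPM) and Dhcr7 (68.7 and 93.0 TPM), among others. The lowest mean over all transcript models was that of Hsd17b7, a reductase of the sterol C4 demethylation steps, at 2.21 and 1.75 TPM. Over protein-coding transcripts alone Msmo1 was lowest, at 2.26 and 1.05 TPM. Together the members took 1329 TPM in replicate 1 and 1361 TPM in replicate 2, which is 0.133% and 0.136% of the total. By group, the sterol steps summed to 628 and 467 TPM, sensing and transport to 432 and 341 TPM, and fatty acid synthesis to 269 and 553 TPM. The higher fatty acid sum in replicate 2 lay in Fasn, since the other 6 genes of the group summed to 94.2 and 83.1 TPM. Counting only protein-coding transcripts, the fatty acid genes gave 114 and 116 TPM, and all members together 885 and 749 TPM.

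**Figure D1:**
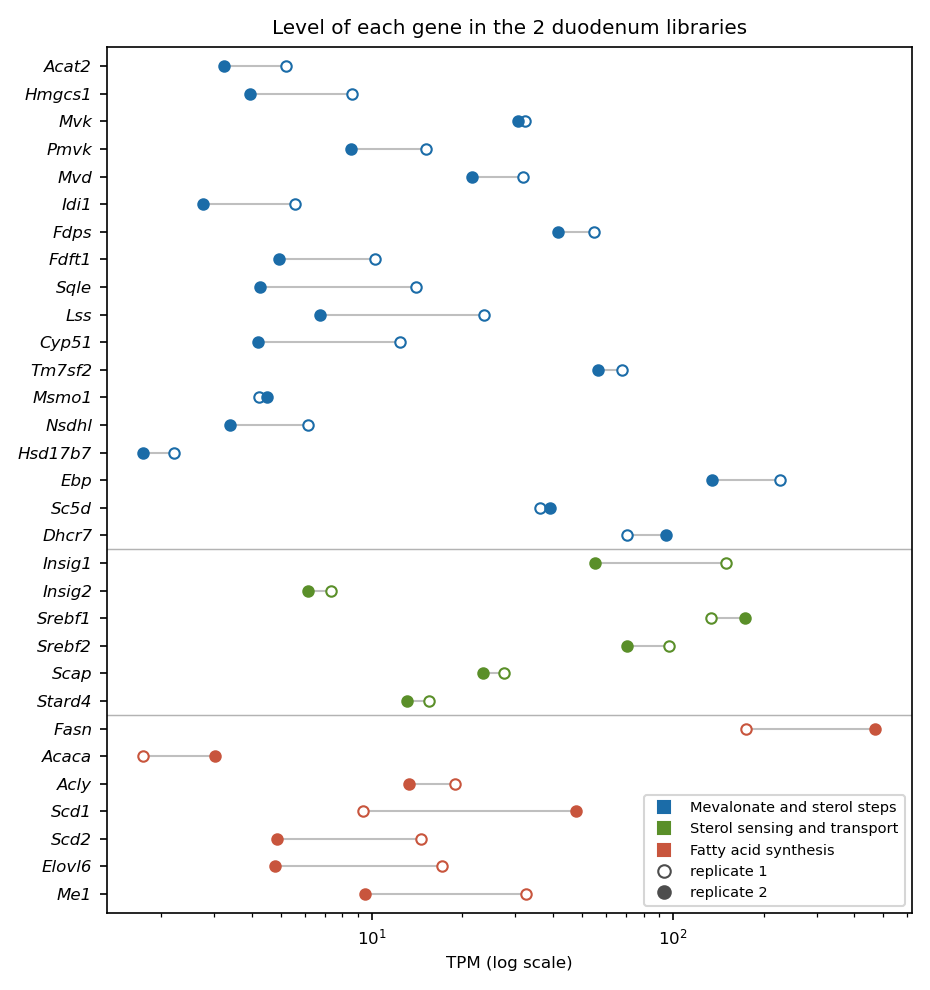
Level of each of the 31 members in TPM, on a log axis, with open circles for replicate 1 and filled circles for replicate 2, coloured by group, 1 value per library. Over all transcript models Fasn stands highest, at 175 and 470 TPM, and Scd1, at 9.36 and 47.6 TPM, has the widest gap.

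Depth was nearly equal, with 44272208 and 44710137 expected counts (fragments assigned to genes) in replicates 1 and 2. The libraries differed widely across all genes, with a chi-square per degree of freedom of 783 and a biological coefficient of variation of 0.537 in edgeR. Members were compared on counts scaled by TMM, a normalisation to the bulk of genes, with an exact two-sided binomial test and Benjamini-Hochberg adjustment over the 15916 genes whose mean count reached 10 or more, and all 31 members passed that filter. A gene was called where the adjusted p was under 0.05 and the scaled counts differed at least 2-fold. Ratios are given as replicate 2 over replicate 1, with 95% Clopper-Pearson intervals that cover counting error only.

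By that rule 3 members were higher in replicate 2 (Scd1, Acaca and Fasn), beside 11.5% of all genes tested, and 6 were higher in replicate 1 (Sqle, Cyp51, Insig1, Elovl6, Me1 and Scd2), beside 14.6% of all genes. The other 22 were not called. These shares, 9.68% and 19.4% of the members, lie near those of all genes. At an adjusted p under 0.05 and any size, 7 members were higher in replicate 2, beside 36.6% of all genes, 19 were higher in replicate 1, beside 38.4%, and 5 passed in neither direction. The median log2 ratio was -0.39 over the members and -0.04 over all genes tested. In bulk tissue, fewer cells of a type and less RNA per cell cannot be told apart, so these are differences between tissue samples.

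**Figure D2:**
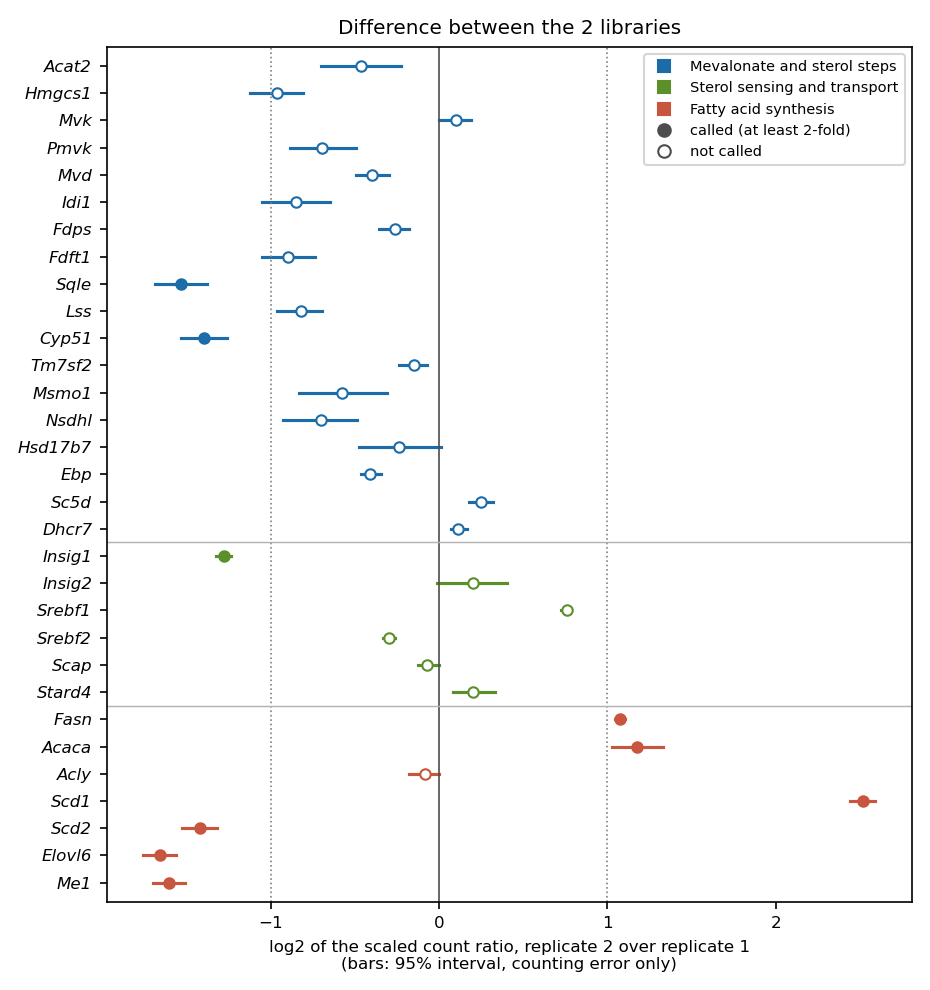
Log2 ratio of scaled counts, replicate 2 over replicate 1, for each member, with bars for the 95% interval of counting error and dotted lines at 2-fold. In the sterol steps 15 of 18 points lie left of 0, beside 52.1% of all genes tested, a count that depends on the scaling. The fatty acid genes split, with Scd1 farthest right and Elovl6 farthest left.

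The enzymes of the mevalonate and sterol steps were mostly lower in replicate 2, by less than 2-fold. Of the 18, 14 were higher in replicate 1 at any size, 2 higher in replicate 2 (Sc5d and Dhcr7) and 2 in neither direction (Mvk and Hsd17b7), with a median log2 ratio of -0.48. Of all genes tested, 38.4% were higher in replicate 1 at any size and 36.6% higher in replicate 2. Only Sqle and Cyp51 of the sterol steps were called. Sqle (squalene epoxidase, ENSMUSG00000022351.10, chr15:59315077-59331192, mm10) makes the oxygenated form of squalene that is cyclised to lanosterol. Its level was 14.1 and 4.26 TPM in replicates 1 and 2, a 2.89-fold difference in scaled counts (2.60 to 3.22, adjusted p = 1.82e-100, exact binomial test). Cyp51 (ENSMUSG00000001467.4, chr5:4081145-4104746) is the demethylase that acts on lanosterol. It stood at 12.4 and 4.19 TPM, 2.63-fold higher in replicate 1 (2.40 to 2.89, adjusted p = 5.19e-110, exact binomial test). In both genes the interval lies wholly beyond the 2-fold limit.

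At the start of the pathway, Acat2, the cytosolic thiolase that joins acetyl units, stood at 5.21 and 3.25 TPM and was 1.38-fold higher in replicate 1. Hmgcs1 (ENSMUSG00000093930.1, chr13:119690379-119708260), which makes HMG-CoA, stood at 8.62 and 3.94 TPM. Its scaled counts were 1.95-fold higher in replicate 1 (1.75 to 2.18), just under the limit for a call. The kinases and the decarboxylase that follow did not move alike. Mvk, mevalonate kinase, stood at 32.3 and 30.7 TPM with an adjusted p of 0.0698 (exact binomial test). Pmvk, phosphomevalonate kinase, had 15.2 and 8.52 TPM, 1.62-fold more in replicate 1. Mvd, which forms isopentenyl diphosphate, had 31.7 and 21.6 TPM, 1.32-fold more there.

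Idi1, the isomerase of isoprenoid units, stood at 5.56 and 2.76 TPM, 1.80-fold higher in replicate 1 (1.57 to 2.07). Fdps, which makes farnesyl diphosphate, was more abundant and differed less, at 54.9 and 41.5 TPM and 1.20-fold. Fdft1, squalene synthase, stood at 10.3 and 4.93 TPM, 1.86-fold higher in replicate 1 (1.67 to 2.07). Fdft1 and Sqle, the first enzymes committed to sterol, thus differed more between the libraries than Fdps (1.13 to 1.28, counting error only), which also supplies isoprenoids for other products. The differences did not divide at this branch. Hmgcs1 (1.95-fold) and Idi1, both before Fdps, differed about as much as Fdft1. Among later enzymes Tm7sf2 differed less than Fdps (1.11-fold), and Sc5d and Dhcr7 were higher in replicate 2. Lss, the cyclase that makes lanosterol, was 1.77-fold higher in replicate 1 in counts (1.62 to 1.95), while its TPM went from 23.6 to 6.72.

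The later steps, from lanosterol to cholesterol, spread over a wide range of levels. Tm7sf2, a sterol reductase, stood at 68.0 and 56.4 TPM and was 1.11-fold higher in replicate 1. The enzymes that remove methyl groups were low: Msmo1 stood at 4.23 and 4.49 TPM and Nsdhl at 6.17 and 3.39 TPM, and their counts were 1.49-fold and 1.63-fold higher in replicate 1. Ebp, which shifts a double bond in the ring, had the highest level of the 18 over all transcript models, at 227 and 135 TPM, and was 1.33-fold higher in replicate 1. On coding transcripts alone it had 26.7 and 27.1 TPM and ranked 6 of the 18, with Dhcr7 first. Sc5d, a desaturase, stood at 36.1 and 39.1 TPM and was 1.19-fold higher in replicate 2. Dhcr7, whose product is cholesterol, stood at 70.3 and 94.8 TPM and was 1.08-fold higher in replicate 2. Under scaling to total counts or to the ERCC spike-ins, which lowers the median of all genes to -0.24, the log2 ratio of Dhcr7 turned to -0.12 and -0.13, and that of Mvk to -0.14 and -0.15.

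Among the sensing genes, Insig1 was called and Insig2 was not. Insig1 (ENSMUSG00000045294.10, chr5:28071363-28078662), itself a target of SREBP, had 150 TPM in replicate 1 against 55.0 TPM in replicate 2, with 15398 and 5419 expected counts. That is 2.43-fold higher in replicate 1 (2.36 to 2.51). Its paralogue Insig2 stood far lower, at 7.31 and 6.17 TPM, with an interval that includes no difference (1.15-fold higher in replicate 2 in counts, 0.993 to 1.32). The level of Insig1 was 20.5 times that of Insig2 in replicate 1 and 8.92 times in replicate 2, so Insig1 was the main form in both libraries.

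The SREBP genes moved in opposite directions by less than 2-fold. Srebf1 (ENSMUSG00000020538.11, chr11:60199089-60222581) stood at 134 and 173 TPM, with scaled counts 1.69-fold higher in replicate 2 (1.65 to 1.72). Srebf2 (ENSMUSG00000022463.7, chr15:82147181-82205379) stood at 97.4 and 70.4 TPM, 1.23-fold higher in replicate 1 (1.20 to 1.26). Over all transcript models the level of Srebf1 was 1.38 times that of Srebf2 in replicate 1 and 2.45 times in replicate 2. Over coding transcripts alone the ratios were 0.779 and 1.68, so Srebf2 was then the higher of the pair in replicate 1. Scap, at 27.5 and 23.4 TPM, had an interval from 1.00 to 1.09 and was in neither direction (adjusted p = 0.0578, exact binomial test). Stard4 (chr18:33199355-33213862), which carries sterol through the cytosol, stood at 15.5 and 13.1 TPM, and its counts were 1.15-fold higher in replicate 2, a sign that turned under total-count scaling, to -0.03.

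Srebf1 makes SREBP-1a from a distal first exon and SREBP-1c from a proximal one, and the first-exon starts lie 10139 bases apart. Reads summed over both libraries were taken from the deposited list of splice junctions. The list was matched to the introns of the gene by length and 1 common offset, and 20 of 22 annotated introns were listed. The 13195-base intron behind the distal exon had 210 reads, and the 3078-base intron behind the proximal exon had 21. The distal form thus took 90.9% of the 231 reads across the first introns (86.4% to 94.3%, exact Clopper-Pearson interval of 95%), or 10 times as many as the proximal form. The next intron, which the forms share, had 1037 reads, and the shared introns further down ranged widely, with 103 reads for the 622-base intron and 93 for the 520-base intron, both under the distal count. The quantifier placed most of the coding level on Srebf1-201, the distal form, at 37.0 and 53.5 TPM, and on Srebf1-203, which begins inside the shared second exon and so tells nothing of the start used, at 37.4 and 63.8 TPM. Srebf1-207, the proximal form, was given 1.44 and 1.05 TPM. Srebf1-208, a short non-coding model, was given 593 counts (29.1 TPM) in replicate 1 and 0 in replicate 2, while its own 3305-base intron is not in the junction list. Without libraries kept apart in the match, no difference in first exon between the replicates was tested.

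**Figure D3:**
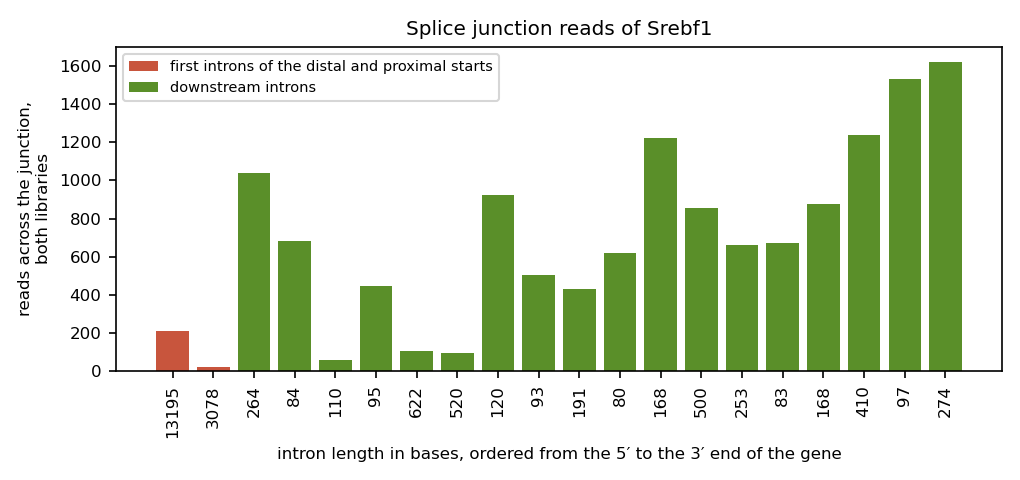
Reads across each of the 20 listed introns of Srebf1, both libraries together, in order from the 5′ to the 3′ end, labelled by intron length in bases. The distal first intron (210 reads) and the proximal one (21 reads) stand in red. Downstream introns range from 54 to 1621 reads.

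Fatty acid synthesis had the widest differences of the 3 groups, and 6 of its 7 genes were called, 3 in each direction. Of all genes tested, 11.5% were called higher in replicate 2 and 14.6% higher in replicate 1. The group is small, and the calls of Fasn and Acaca depended on the scaling. Scd1 (ENSMUSG00000037071.2, chr19:44394455-44407879), the desaturase that puts a double bond into saturated acyl chains, stood at 9.36 TPM in replicate 1 and reached 47.6 TPM in replicate 2, with 1779 and 8729 expected counts. That is 5.73-fold higher in replicate 2 (5.44 to 6.03), and 97.8% of all genes tested had a smaller log2 ratio in size. Its neighbour and paralogue Scd2 (ENSMUSG00000025203.5, chr19:44293674-44306864) went the other way, at 14.6 and 4.86 TPM, 2.68-fold higher in replicate 1 (2.50 to 2.88, adjusted p = 1.06e-186, exact binomial test). The ratio of Scd1 to Scd2 went from 0.639 in replicate 1 to 9.80 in replicate 2. The quantifier's posterior SD of either count was 1.14 in replicate 1 and 0.50 in replicate 2, so few reads were shared between the paralogues.

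The enzymes of the chain itself differed less. Acaca (ENSMUSG00000020532.14, chr11:84129672-84401651), the carboxylase that makes malonyl-CoA, was low, at 1.75 and 3.02 TPM, and 2.26-fold higher in replicate 2 (2.04 to 2.51, adjusted p = 1.68e-56, exact binomial test). Fasn (ENSMUSG00000025153.8, chr11:120805846-120824547) was 2.11-fold higher in replicate 2 in counts (2.06 to 2.15). Both ratios were under 2-fold with total-count scaling, at log2 ratios of 0.91 for Acaca and 0.84 for Fasn. Acly, which releases cytosolic acetyl-CoA from citrate, was not called, at 18.9 and 13.3 TPM (1.06-fold higher in replicate 1, 1.00 to 1.13).

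Elovl6 and Me1 were higher in replicate 1. Elovl6 (ENSMUSG00000041220.6, chr3:129532355-129638495), which lengthens palmitate, stood at 17.1 and 4.80 TPM, 3.16-fold higher in replicate 1 (2.96 to 3.38, adjusted p = 3.72e-298, exact binomial test). Me1 (malic enzyme, ENSMUSG00000032418.11, chr9:86581371-86695953), a source of cytosolic NADPH, stood at 32.5 and 9.51 TPM, 3.04-fold higher there (2.85 to 3.25, adjusted p = 1.85e-290, exact binomial test). Genes usually named together as lipogenic thus split between the libraries, Scd1, Acaca and Fasn on one side and Elovl6, Me1 and Scd2 on the other.

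The TPM of several members came mostly from short non-coding models, which weigh heavily because TPM divides by length. In Fasn, the retained-intron models Fasn-202 (762 nucleotides) and Fasn-203 (971 nucleotides) took 96.1 and 54.6 TPM in replicate 1 and 213 and 223 TPM in replicate 2. The full-length coding Fasn-201 (9587 nucleotides) took 24.1 and 34.0 TPM, from 9272 and 12646 counts, so its share of the gene's TPM was 13.8% and 7.25%. On protein-coding transcripts alone the log2 ratio of Fasn was 0.67, and Fasn was not called. In Ebp, the retained-intron model Ebp-204 took 200 and 108 TPM, and the coding Ebp-201 took 25.1 and 27.1 TPM, so the lower level of Ebp in replicate 2 lay in the non-coding model, and the coding log2 ratio was 0.24.

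The leading transcript differed between the libraries in Lss, Msmo1 and Fasn, and its share of the gene differed by at least 20 points in Acat2, Lss, Msmo1, Dhcr7 and Acly. In Lss the 425-nucleotide Lss-205 went from 16.7 to 3.0 TPM while the coding Lss-201 went from 5.53 to 3.48 TPM. In Msmo1 the coding Msmo1-201 went from 53.6% to 21.6% of the gene. With protein-coding transcripts alone (172 and 72 counts) Msmo1 was called higher in replicate 1. The call uses scaled counts as they are, while the log2 ratio of -0.86 includes the added 0.5 CPM, which shrinks it at low counts. In Dhcr7 the long coding form Dhcr7-202 went from 66.5 to 56.8 TPM. The short Dhcr7-209 (713 nucleotides, also annotated as coding) went from 0.530 to 34.0 TPM, which is where the gene's higher TPM in replicate 2 lay. Acat2-201 went from 48.4% to 76.3% of its gene and Acly-201 from 36.0% to 63.9%. The shares are estimates of the quantifier and have no error of their own beyond the pair of libraries. Over coding transcripts alone the sterol steps summed to 400 and 347 TPM, and sensing and transport to 370 and 286 TPM.

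**Figure D4:**
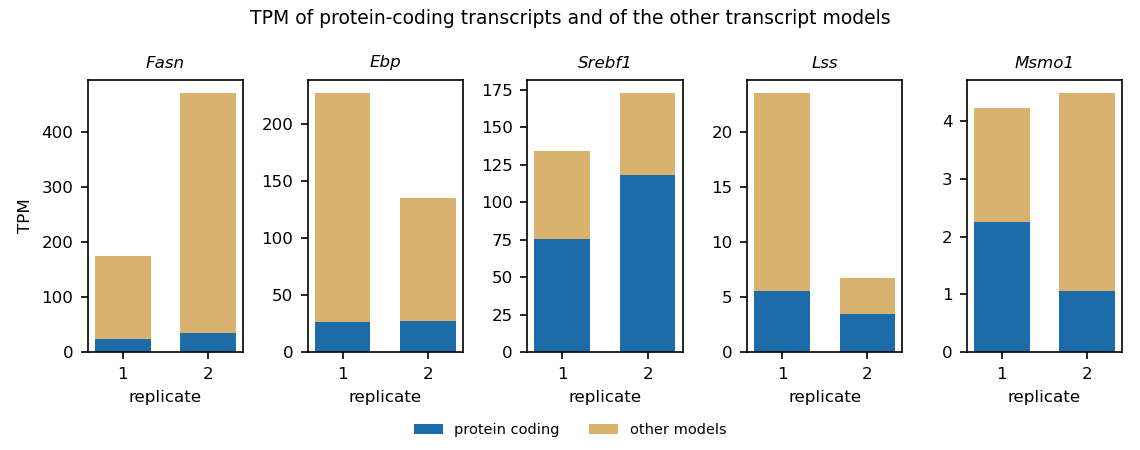
TPM of 5 members split into protein-coding transcripts (blue) and all other transcript models of the gene (tan), 1 bar per library, each panel with its own axis from 0. In Fasn the coding part is 24.1 and 34.0 TPM of 175 and 470, and in Ebp the coding part is nearly level while the rest is lower in replicate 2.

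Outside the members, 39 further genes of the pathway were read from a list, and 5 were called higher in replicate 2, 3 higher in replicate 1 and 31 were not called, with a median log2 ratio of 0.15. These are 12.8% and 7.69% of the list, beside 11.5% and 14.6% of all genes tested. Among 6 genes of sterol efflux and its nuclear receptors, 2 were called, both higher in replicate 2. Nr1h3, which encodes the liver X receptor alpha, stood at 56.8 and 140 TPM, 2.82-fold (2.70 to 2.94). Abca1, a sterol exporter and a known target of that receptor, was low, at 0.460 and 1.36 TPM, 3.32-fold (2.81 to 3.94). Nr1h2, at 233 and 252 TPM, and Lpcat3, at 195 and 288 TPM, were more abundant and not called. Among 5 genes of sterol esterification and storage, Soat2, which esterifies cholesterol in enterocytes, stood at 109 and 363 TPM, 3.72-fold higher in replicate 2 (3.63 to 3.81), and Soat1, its paralogue, at 11.8 and 5.12 TPM, was not called. Stard3, at 82.8 and 72.2 TPM, and Npc2, at 40.6 and 57.0 TPM, which handle sterol at late endosomes, were not called either.

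Among 13 genes of acetyl and NADPH supply and fatty acid tailoring, Thrsp, a lipogenic gene of liver and fat, was called higher in replicate 2, at 0.90 and 16.9 TPM (20.7-fold, 15.1 to 29.3). Fads1, a desaturase of polyunsaturated acids, was higher in replicate 1, at 22.1 and 5.98 TPM (3.29-fold, 3.04 to 3.57), as was Acacb, the carboxylase isoform of mitochondria, at 6.58 and 2.48 TPM (2.38-fold, 2.17 to 2.62). The most abundant of these genes were not called, with the citrate carrier Slc25a1 at 307 and 389 TPM, the NADPH source Pgd at 248 and 299 TPM and the carbohydrate-response factor Mlxipl at 288 and 250 TPM. Of 8 genes of SREBP processing and turnover, Mbtps2, a Golgi protease that frees SREBP, was the one called, at 1.62 and 0.360 TPM (2.17-fold higher in replicate 1, 1.61 to 2.94). Of 7 genes of the isoprenoid branches, Fnta, a farnesyltransferase subunit, was the one called, at 3.48 and 9.05 TPM (2.9-fold higher in replicate 2, 2.49 to 3.38).

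Marker genes of other cells moved with the same libraries. All 8 fat cell markers were higher in replicate 2, with a summed level of 143 TPM in replicate 1 and 741 TPM in replicate 2. Cidec, at 123 and 289 TPM, held most of the sum in replicate 1. Cfd stood at 8.75 and 334 TPM, Plin1 at 0.990 and 26.3 TPM, and Adipoq at 0.820 and 11.7 TPM. Retn had 0 counts in replicate 1 and 56 in replicate 2, at least 21.8-fold higher with 3 counts allowed for the 0. Fat cells are known to express lipogenic genes in general, and how far they contributed to any member's level was not tested. Of 11 enterocyte markers 6 were higher in replicate 2 and Alpi was higher in replicate 1, with sums of 12913 and 27365 TPM, led by Apoa1 (2308 and 13844 TPM) and Apoa4 (2380 and 7926 TPM). These markers show small-intestinal epithelium in both libraries and do not tell duodenum from the rest of the small intestine. Replicate 1 held nearly all marker RNA of exocrine pancreas (12 of 12 markers higher there, sums of 73470 and 133 TPM, led by Ctrb1 and Cela2a, with Amy2b at 0 in replicate 2) and of stomach (7 of 7, 12755 and 63.1 TPM, led by Gkn3 and Tff1). Tff2 and Muc6, listed as markers of the Brunner gland of the duodenal wall, were also higher there (2 of 2, 12156 and 26.8 TPM). With stomach RNA in the same library, whether these 2 came from that gland or from stomach was not tested. Of 9 crypt and cycling cell markers 3 were higher in replicate 1, with sums of 256 and 176 TPM, led by Olfm4 and Smoc2. Goblet cell markers were higher in replicate 2 in 4 of 5 (6973 and 18728 TPM, led by Tff3 and Zg16) and smooth muscle markers higher in replicate 1 in 2 of 4 (1254 and 775 TPM, led by Acta2 and Actg2). Liver markers summed to 22.9 and 5.31 TPM, led by Ttr and Apoh, with 2 of 3 tested higher in replicate 1 and the defining liver genes Fgb and Fga at 0 in both. The part of these cells in the member results was not tested. With the pancreas, stomach and Brunner gland markers taken out of the library sizes, the same 9 members were called. That step changes the scaling only and takes no RNA of those tissues out of the member counts, so it does not test their part.

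The ratio between the libraries also moved with base composition and transcript length. Across the 15867 genes with a known GC content, Spearman's rho between GC content and log2 ratio was 0.19, given as a description, since the genes share the same pair of libraries. Across the 31 members it was 0.32. Between transcript length and log2 ratio, rho over all genes tested was -0.16, and its part in the member results was not tested. The median log2 ratio was -0.21 in the fifth of genes with the lowest GC content, which holds 8 members, and 0.17 in the fifth with the highest, which holds 7. The members had a median GC content of 49.3%, beside 52.0% for all genes tested. With the median of each of 20 GC bins removed, an adjustment chosen after the data were seen, the same genes were called except Fasn, whose log2 ratio was then 0.99.

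**Figure D5:**
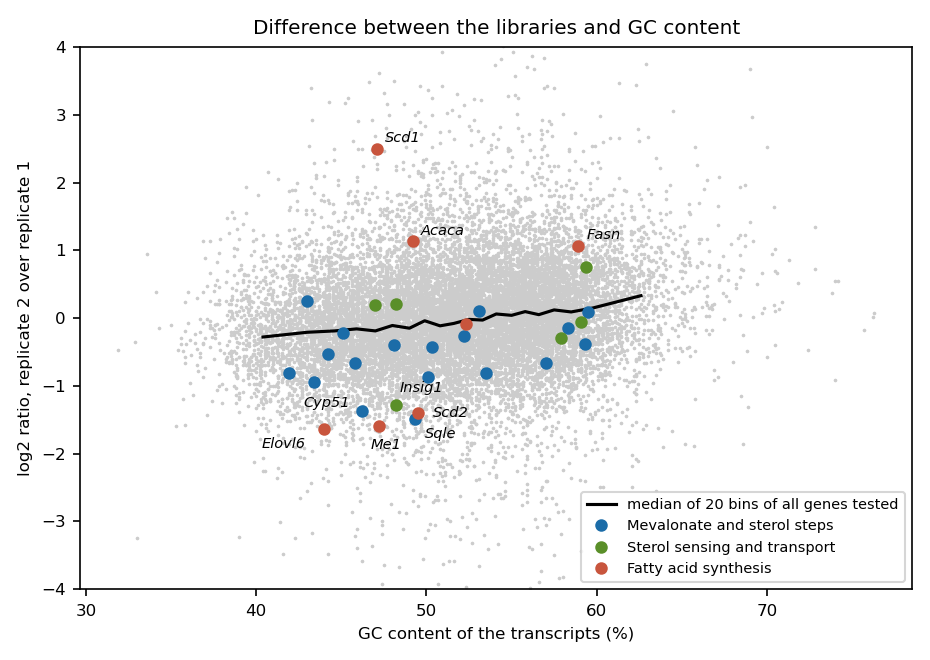
Log2 ratio, replicate 2 over replicate 1, against the GC content of the transcripts, with all genes tested in grey, their median in 20 bins as a black line and the members in colour; the few genes beyond the vertical axis are not drawn. Scd1 and Acaca lie above the line, and Elovl6, Me1, Cyp51, Insig1, Scd2 and Sqle lie below it, at GC contents between 44.0% and 49.5%.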

How the data were processed

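Values were taken from the gene and transcript tables of both libraries and from the list of splice junctions of the series. Per the text files beside the tables, the build was mm10 and the annotation GENCODE M4 plus spike-ins. No version of an aligner or quantifier is named there. The authors deposited expected counts, which are estimates of fragments per gene without normalisation. Their TPM and FPKM columns, as deposited, adjust for transcript length and library size. The isoform percent the authors deposited is a transcript's share of its gene's TPM. The junction read counts used are whole numbers that pool both libraries. Each is the sum of separate counts given in the name of its entry, which were not assigned to replicates. Junction positions are in mm9, and only intron lengths and their relative order were used.

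Symbols, positions (mm10) and GC content came from GENCODE M21, which matched 42462 of 43346 gene rows, and promoters from RefSeq (GRCm38.p6). Rows that name no gene (ERCC spike-ins and others) entered neither library sizes nor tests, and held 1.57% and 1.60% of the counts in replicates 1 and 2. Rounded expected counts of genes whose mean reached 10 were scaled by TMM (edgeR 4.0.16, R 4.3.3). Each gene then had an exact binomial test, two-sided, of replicate 2 against replicate 1, adjusted by Benjamini-Hochberg over all genes tested (scipy 1.17.1, statsmodels 0.14.6). Log2 ratios add 0.5 to the scaled CPM (counts over a common library total), while folds and intervals carry no such addition. The test between libraries was tried on simulated counts that held counting error only. That trial does not cover the wider spread seen between these libraries. A count of 0 allows up to 3 counts, or 0.0678 and 0.0671 CPM. Reads carry no molecular identifiers, so intervals and this floor cover counting error only. Labels describe strand-specific libraries, and no source used here says whether counting used the strand. All members are described. Of the other pathway genes, every called one and at most 3 others per group, the most abundant, were named, and of the marker lists the 2 most abundant and those at 0, with Plin1, Adipoq and Alpi named after their values were seen. The members and lists were chosen with earlier results of these data known. The alternatives tried were other scalings, other low-count and fold limits, posterior mean counts, TPM and FPKM, leaving out markers of neighbouring organs and, chosen after seeing the data, coding transcripts alone and a GC adjustment.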

Additional observations from a re-analysis of the deposited data

How the results depend on the processing

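Of 279 log2 ratios of members under alternatives with a test, 254 kept their direction and their side of the call, 6 lost the call, 9 gained it and 10 changed sign. Among these alternatives, a smaller addition of 0.1 CPM before the log2 does not enter the test and cannot change a call. Posterior mean counts and leaving out the markers of neighbouring organs barely moved the ratios. The 254 is therefore no measure of robustness. Of 62 log2 ratios on the TPM scale, which has no test, 41 moved by less than the spread between the libraries (0.33), 13 by more and 8 changed sign. There Acaca was under 2-fold (0.65, and 0.53 without markers of neighbouring organs) and Hmgcs1 (-1.04 and -1.18) and Lss (-1.74 and -1.89) were beyond it, as were Idi1 (-1.03) and Fdft1 (-1.13) without those markers. In all, 24 of the 31 members kept their direction throughout. Under scaling to total gene counts or to ERCC spike-in totals, 1 member was called higher in replicate 2 and 10 were called higher in replicate 1, beside 7.93% and 20% of all genes under total counts, against 11.5% and 14.6% with TMM. Under these 2 scalings Hmgcs1 (-1.17 with either), Idi1 (-1.03 and -1.04), Fdft1 (-1.10 with either) and Lss (-1.04 and -1.05) gained the call, and Acaca (0.91 with either) and Fasn (0.84 and 0.83) lost it. At a 1.5-fold limit 12 members were called higher in replicate 1 and 4 in replicate 2, beside 24.1% and 21.2% of all genes, and at a 3-fold limit 2 and 1, beside 7.58% and 5.21%. Log2 ratios that changed sign under total counts and ERCC scaling were those of Mvk (-0.14 and -0.15), Dhcr7 (-0.12 and -0.13), Insig2 (-0.04 with either) and Stard4 (-0.03 with either). On the TPM scale they were those of Mvk (-0.07), Msmo1 (0.08), Insig2 (-0.23) and Stard4 (-0.24), and on the TPM scale without pancreas, stomach and Brunner gland markers those of Mvk (-0.22), Sc5d (-0.03), Insig2 (-0.37) and Stard4 (-0.38). The GC adjustment turned Mvk (-0.06), and coding transcripts alone turned Ebp (0.24). The mean summed level of the members, 1345 TPM, became 1418 TPM without those markers, 1198 in FPKM and 817 TPM over coding transcripts, and it was 1329 to 1361 TPM with either library alone. No paired analysis was possible because the labels give 1 group. DESeq2 gave size factors and no test, since each side of the comparison has 1 library. Members with few counts, such as Msmo1 (335 and 193 expected counts), have wide intervals, and no replicate check of any difference between the libraries exists.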
